A study of Mus musculus with 18 samples.

Results

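Interleukin 10 is a secreted cytokine that restrains inflammatory gene expression in macrophages and other immune cells. It binds a receptor built of a ligand-binding chain, encoded by Il10ra, and a chain shared with related cytokines, encoded by Il10rb; the kinases JAK1 and TYK2 bound to these chains then phosphorylate the transcription factor STAT3. Among the genes known to be induced by this route in macrophages are Bcl3, Nfil3, Etv3 and Sbno2, whose products are nuclear proteins described as repressors or co-repressors of inflammatory genes. The 10 genes of this axis (Il10, Il10ra, Il10rb, Stat3, Jak1, Tyk2, Bcl3, Nfil3, Etv3 and Sbno2) were chosen by name. They and the lists of related genes used below were chosen with earlier results of these data known. The symbols of the 10 genes stood against 25 of the 45037 probe sets of the array that are not controls, and each gene had at least 1.

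The samples were mouse immune cells exposed to a cell wall extract, and the title of the study names IL-10 production as its subject. Total RNA of 18 samples was hybridised to Affymetrix expression arrays, with 6 arrays at 0 h (the time zero control), 6 at 1 h and 6 at 4 h after it. Each title has an array code as well. These codes form the ranges 44-54, 32-37 and 12-22, with 2 arrays per range and time; what a range stands for is not labelled. The design text speaks of KO mice, while no label gives the genotype, strain, age, sex or cell type of a sample, or the dose of the extract. No label ties a sample to an animal or a culture. A p-value here weighs a difference against the spread among the samples, and that spread may be technical. In the fit by time alone, the spread also holds the differences between the ranges.

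Values are signals, the brightness of a probe set on a linear scale after the authors' scaling of each array. Changes are given as log2 fold changes of signal + 16, a constant that damps the noise of dim probe sets and makes their fold changes smaller, with the standard error (SE) of limma's fit over all 18 arrays. A call means a Benjamini-Hochberg adjusted p under 0.05 over the 25804 probe sets that lay above the median of their own array on at least 4 arrays. Of the 25 probe sets 24 passed that filter, and 1 of the 3 for Il10ra did not; each gene is represented below by its brightest probe set unless another is named. The array files hold 1 value per probe set and array with no read depth, so the number of arrays limits the precision.

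The label of immune cells was set against marker genes. As a sum, macrophage markers were bright on every array (the summed signal of 9 probed markers was 164392 to 229009). Lyz2, the lysozyme of myeloid cells, was at 33142 to 71304 and Csf1r, the receptor for the macrophage growth factor, at 27013 to 51089. Others were dimmer, with Itgam at 904 to 4613 and Mertk, the dimmest, at 82.9 to 2314. Markers of lymphocytes and mast cells were far dimmer. The 8 probed T cell markers summed to at most 458 on an array, the 6 for B cells to at most 754, the 5 for NK cells to at most 374 and the 6 for mast cells to at most 301. Of these, 1 T cell marker (Cd8a, 9.02 to 169), 2 B cell markers (Cd79b, 25.9 to 355, and Cd22, 73.4 to 179), 2 NK cell markers (Klrd1, 16.3 to 129, and Prf1, 25.6 to 139) and 0 of the mast cell markers were bright enough to be tested. Cd79b, a chain of the B cell receptor, averaged 73.6 in codes 44-54, 89.6 in codes 32-37 and 255 in codes 12-22. The other B cell marker bright enough to be tested, Cd22, averaged 127, 113 and 125 in the same order and did not follow it. The T cell receptor chain Cd3e was at 8.15 to 63.5. The 8 probed dendritic cell markers, of which 3 were bright enough to be tested, summed to 446 to 547 at 0 h and 606 to 907 at 4 h. The ranges of codes stood apart. For 18 of 18 arrays, the array of another time most like it after the means of the times were removed was of the same range, and no 2 arrays held identical values. Collagen and other stromal markers summed to 13242 to 18442 in codes 44-54, 3492 to 6851 in codes 32-37 and 1077 to 1701 in codes 12-22, while neutrophil markers summed to 954 to 2439, 1420 to 3702 and 2899 to 5878 in the same order. Of the neutrophil markers bright enough to be tested, the means of S100a8, S100a9, Camp and Ngp rose in that order. Those of Csf3r (779, 592 and 682) and Ltf (42.9, 104 and 69.2) did not. Since RNA was taken from all cells of a sample together, fewer cells of a type and less RNA per cell cannot be told apart.

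Il10, the cytokine itself, was low at 0 h and high on most arrays from 1 h on. Its signal at 0 h ran from 36.3 to 315 with a median of 244, at 1 h from 267 to 2127 with a median of 1650, and at 4 h from 482 to 2980 with a median of 1460. Every array at 4 h was above every array at 0 h, as was so for 5.59% of all probe sets tested, whereas at 1 h a single array, the 1 h replicate 6 of codes 12-22, lay among the 0 h values. The log2 fold change was 2.84 ± 0.57 (SE) at 1 h against 0 h (limma, adjusted p = 0.0196) and 3.11 ± 0.57 at 4 h against 0 h (adjusted p = 4.13e-04), which is a fold of 7.15 and of 8.64. Between 4 h and 1 h the change was 0.27, with a 95% interval of -0.92 to 1.46 that spans both directions (adjusted p = 0.773). The call at 1 h depended on which arrays were in the fit: it was lost without codes 32-37 (1.80, adjusted p = 0.655), without codes 44-54 (2.92, adjusted p = 0.475) and without any 1 of 0 h replicate 3 and 1 h replicates 1, 2, 3 and 4 (2.60 to 2.76, adjusted p 0.0575 to 0.0644). The call at 4 h held in 29 of 29 alternative settings.

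The 2 arrays of each time and range show where the spread of Il10 lay. At 0 h the signals were 243 and 282 in codes 44-54, 36.3 and 59.6 in codes 32-37, and 245 and 315 in codes 12-22. At 1 h they were 1625 and 1932, 1675 and 2127, and 267 and 1063 in the same order of ranges, and at 4 h 1643 and 2703, 1243 and 2980, and 482 and 1278. Codes 32-37 thus had the lowest signals at 0 h and overlapped codes 44-54 at 1 h and 4 h, and the lowest signals at 1 h and 4 h were of codes 12-22. The 4 h log2 fold change was 2.93 in codes 44-54, 4.95 in codes 32-37 and 1.45 in codes 12-22 (SE 0.61 each). Both 0 h signals of codes 32-37 lay below the median of their own arrays (91.9 and 89.5), so that the size of that change depends on the added 16. The difference between the ranges did not pass (limma's F test, adjusted p = 0.179; at 1 h, adjusted p = 0.850). With the range as a term next to time, Il10 was not called between any 2 ranges (adjusted p 0.215 to 0.776).

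**Figure D1:**
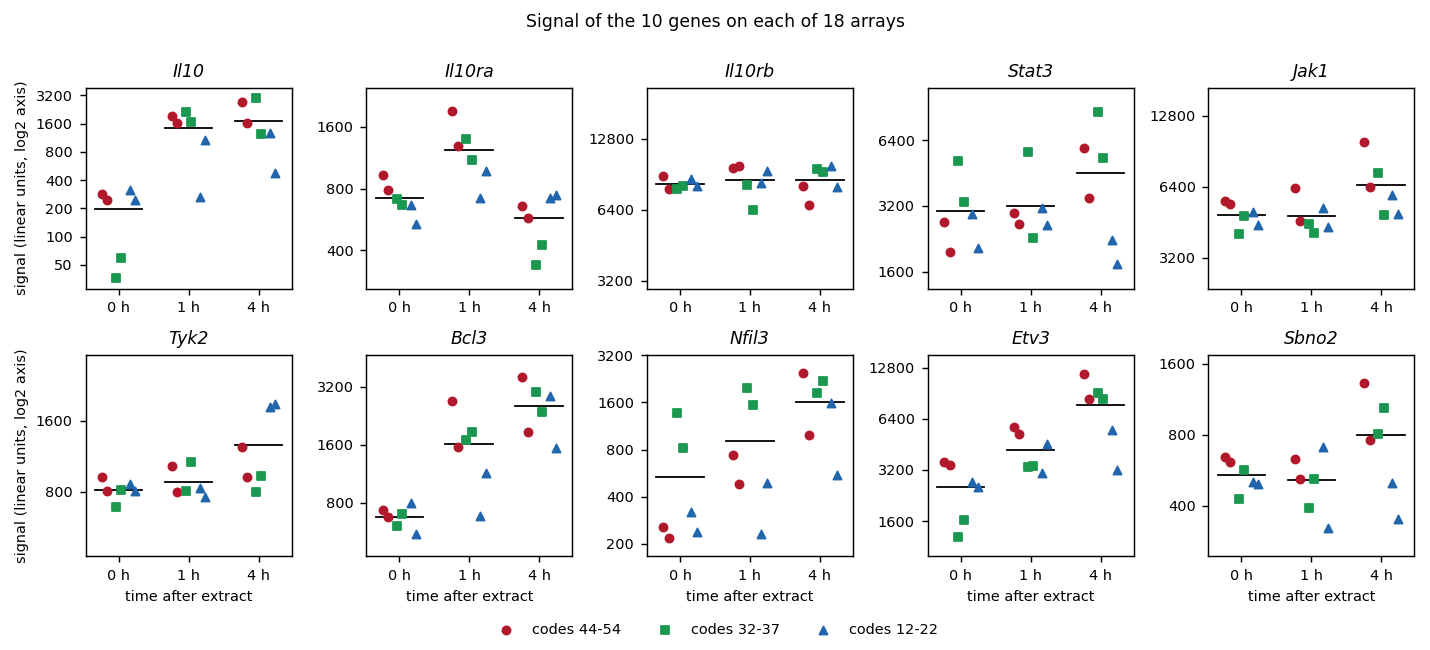
Signal of each of the 10 genes (brightest probe set, linear units on a log2 axis with its own scale for each gene) on 18 arrays at 0 h, 1 h and 4 h after the extract; points are arrays, colours and shapes are the ranges of array codes, and the line is the mean of 6 arrays. Il10 and Bcl3 at 4 h lie above every 0 h array, Il10rb stays between 6361 and 9819, and Nfil3 at 0 h is highest on the 2 arrays of codes 32-37.

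Across the 10 genes, limma called 1 up and none down at 1 h against 0 h, where it called 0.612% of all probe sets tested up and 0.140% down. An unadjusted p under 0.05 was found for 4 of the 10, a threshold at which the share of all probe sets was not counted. At 4 h against 0 h it called 5 up (Il10, Tyk2, Bcl3, Nfil3 and Etv3) and none down, against 9.93% up and 23.1% down among all probe sets. Between 4 h and 1 h it called 1 down, Il10ra, and none up, against 16.7% down and 7.70% up. The median log2 fold change of the 10 genes was 0.41 at 1 h and 0.50 at 4 h against 0 h, beside -0.04 and -0.22 for all probe sets tested. The shift of all probe sets at 4 h depended on the scaling and was -0.07 after quantile normalization and 0.04 with each array centred on its median. With the range of codes as a block, the counts were 2 up at 1 h (with Bcl3 added; 1.03% of all up and 0.279% down), 6 up at 4 h (with Jak1 added; 12.6% of all up and 30.3% down), and 4 up and 1 down between 4 h and 1 h (Jak1, Bcl3, Nfil3 and Etv3 up; 10.6% of all up and 23.3% down). With each array centred on its median, the split between 4 h and 1 h was 5 up and 1 down.

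**Figure D2:**
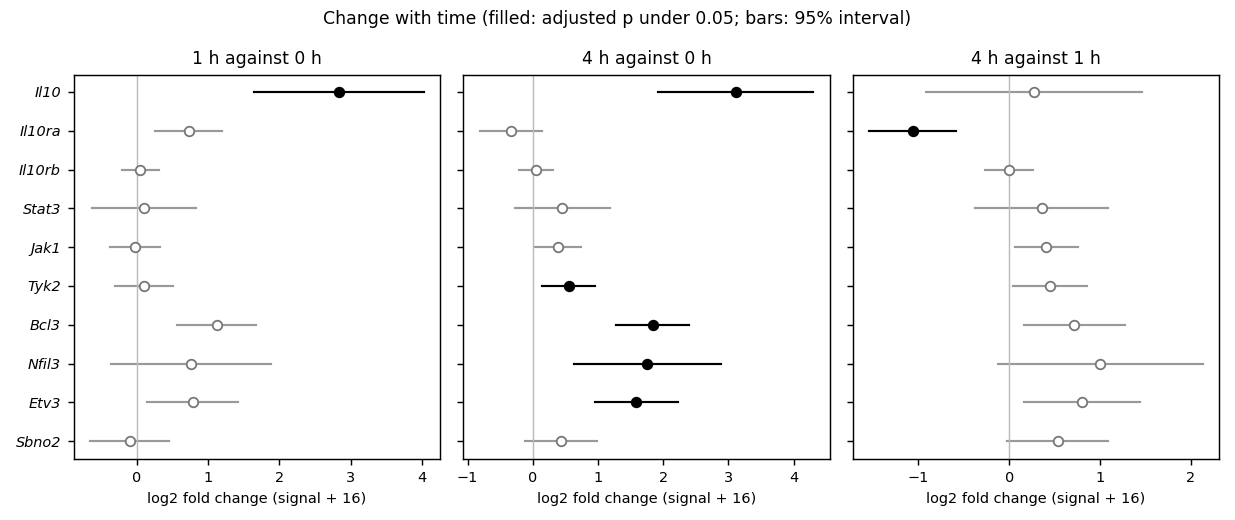
Log2 fold change (signal + 16) of each gene at 1 h against 0 h, 4 h against 0 h and 4 h against 1 h, with 95% intervals from limma over 18 arrays; filled points had an adjusted p under 0.05. Il10, Tyk2, Bcl3, Nfil3 and Etv3 are filled at 4 h against 0 h, and Il10ra, at -1.06, is the filled point at 4 h against 1 h.

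Of the receptor chains, Il10ra was called down between 4 h and 1 h and Il10rb was called in no comparison of times; the difference between the chains was not tested. Il10ra, the ligand-binding chain, had signals of 539 to 929 at 0 h (median 689), 721 to 1913 at 1 h (median 1197) and 339 to 743 at 4 h (median 617). The 1 h values reached highest and those at 4 h lowest, with overlap between all 3 times. Its change at 1 h against 0 h was 0.73 ± 0.23 and was not called (limma, adjusted p = 0.254, unadjusted p = 0.00486), and at 4 h against 0 h it was -0.34 ± 0.23 (adjusted p = 0.267). Between 4 h and 1 h it fell by 1.06 on the log2 scale (SE 0.23, adjusted p = 0.00223), a fold of 2.09, and this call held in 28 of 29 alternative settings, the exception being the fit without codes 32-37 (-0.76, adjusted p = 0.0652). Il10ra at 4 h was 575 and 658 in codes 44-54, 339 and 426 in codes 32-37 and 722 and 743 in codes 12-22, against 1294 and 1913, 1100 and 1390, and 721 and 980 at 1 h. The 4 h arrays thus lay below the 1 h arrays in codes 44-54 and 32-37 and within their span in codes 12-22. At 0 h the signals were 787 and 929, 669 and 708, and 539 and 666 in the same order of ranges. The 4 h arrays were below the 0 h arrays in the first and second of these ranges and above them in the last, with log2 fold changes of -0.47, -0.83 and 0.28 (SE 0.24); the difference between ranges did not pass (limma's F test, adjusted p = 0.316). A dimmer probe set for Il10ra (1437808_x_at), above the array median on 10 of 18 arrays, gave -1.01 ± 0.64 between 4 h and 1 h (adjusted p = 0.277).

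Il10rb, the chain shared with the receptors of related cytokines, was the steadiest of the 10 genes: its representative had the smallest standard errors. Its signals were 7834 to 8884 at 0 h (median 8074), 6361 to 9754 at 1 h (median 8814) and 6699 to 9819 at 4 h (median 8667), and the 3 times overlapped. The changes were 0.05 at 1 h and 0.05 at 4 h against 0 h (SE 0.13 each), with 95% intervals of -0.21 to 0.31 and -0.22 to 0.31. A second probe set for Il10rb gave 0.27 ± 0.21 at 1 h and -0.01 ± 0.21 at 4 h (adjusted p = 0.996 and 0.968).

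Of the kinases, Tyk2 rose at 4 h and Jak1 came close to the threshold. Tyk2 had signals of 687 to 926 at 0 h (median 808), 761 to 1072 at 1 h (median 816) and 796 to 1887 at 4 h (median 1081). The 2 highest values, 1837 and 1887, were the 4 h arrays of codes 12-22, and the other 4 h arrays, at 796 to 1233, overlapped those at 0 h. Its change at 4 h against 0 h was 0.55 ± 0.19 (limma, adjusted p = 0.0377); within ranges it was 0.30 in codes 44-54, 0.20 in codes 32-37 and 1.15 in codes 12-22 (SE 0.21; F test of the difference, adjusted p = 0.297). The call held in 16 of 29 alternative settings and was lost without codes 12-22 (0.25, adjusted p = 0.342) or codes 44-54 (0.67, adjusted p = 0.104). It was also lost without any 1 of 0 h replicates 1, 2, 3, 5 and 6 and 4 h replicates 3, 5 and 6 (0.42 to 0.57, adjusted p 0.0509 to 0.0937). A second, dimmer Tyk2 probe set gave 0.16 ± 0.23 (adjusted p = 0.647).

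Jak1, the partner kinase, had signals of 4042 to 5600 at 0 h (median 4925), 4079 to 6325 at 1 h (median 4505) and 4857 to 9895 at 4 h (median 6153). The 4 h values reached higher but overlapped those at 0 h. The brightest probe set gave 0.39 ± 0.17 at 4 h against 0 h (limma, adjusted p = 0.0854; 0.0349 with the range as a block), a second one (1433803_at) rose by 0.54 ± 0.15 (adjusted p = 0.0123), and the other (1433804_at) gave -0.07 ± 0.28 (adjusted p = 0.882). The 3 probe sets therefore did not give the same call. Without 4 h replicate 2 or 5 the brightest was called (0.46 each, adjusted p = 0.0443 and 0.0499), and with each array centred on its median it was called at 0.64 (adjusted p = 0.00994). At 1 h the changes of the 3 lay between -0.29 and 0.04, and none was called.

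Stat3, the transcription factor phosphorylated by these kinases, overlapped between the times and spread widely over the ranges of codes. At 4 h its signals were 3487 and 5909 in codes 44-54, 5296 and 8604 in codes 32-37 and 1737 and 2239 in codes 12-22, against 1965 and 2696, 3354 and 5147, and 2049 and 2938 at 0 h. The 4 h arrays were above the 0 h arrays of their own range in the first 2 ranges and not in codes 12-22. The change over all arrays was 0.45 ± 0.35 at 4 h (limma, adjusted p = 0.337) and 0.10 ± 0.35 at 1 h (adjusted p = 1.00), with within-range changes at 4 h of 0.98, 0.70 and -0.31 (F test of the difference, adjusted p = 0.646). Of the other 3 Stat3 probe sets, 1459961_a_at rose at 4 h (0.73 ± 0.27, adjusted p = 0.0441), 1460700_at gave 0.68 ± 0.30 (adjusted p = 0.0864; 0.0216 with the range as a block) and 1424272_at gave 0.31 ± 0.24 (adjusted p = 0.349). All 4 changes at 4 h were positive and 1 of 4 was called. The mean over the 4 probe sets was called at 4 h against 0 h (0.54, adjusted p = 0.0387).

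**Figure D3:**
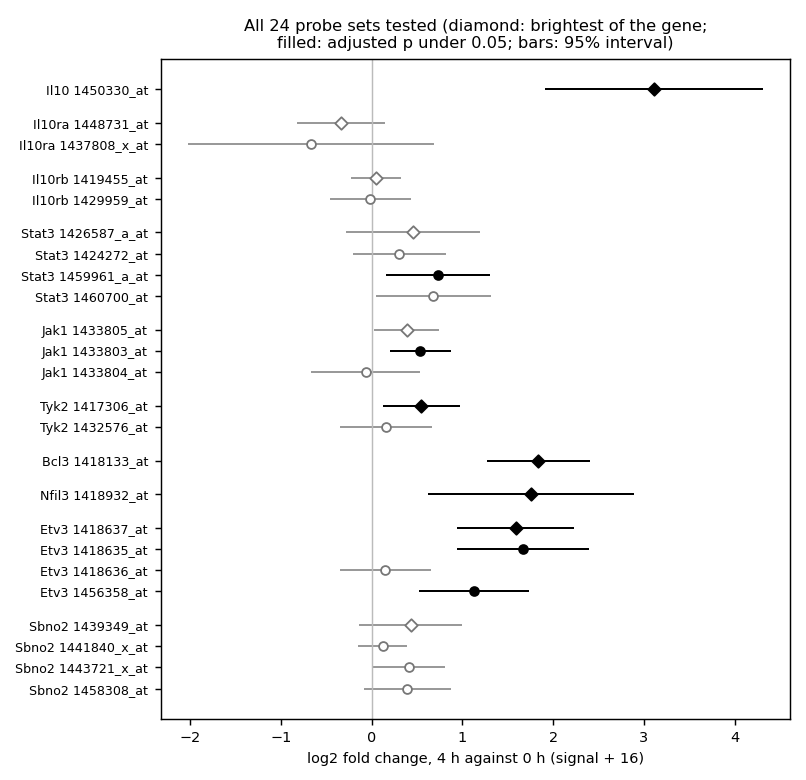
Log2 fold change (signal + 16) at 4 h against 0 h of all 24 probe sets tested for the 10 genes, with 95% intervals from limma; diamonds are the brightest probe set of a gene and filled symbols had an adjusted p under 0.05. Etv3 has 3 filled of 4, Stat3 1 of 4 and Jak1 1 of 3, and no probe set for Il10ra, Il10rb or Sbno2 is filled.

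Bcl3, which encodes a nuclear protein of the IκB family that binds NF-κB at promoters, rose at 4 h in each range. Its signals were 550 to 798 at 0 h (median 687), 684 to 2708 at 1 h (median 1631) and 1540 to 3610 at 4 h (median 2620). Each 4 h array exceeded each 0 h array, as was so for 5.59% of all probe sets tested. At 1 h the array that overlapped the 0 h values was again replicate 6 of codes 12-22. The log2 fold change at 4 h against 0 h was 1.84 ± 0.27 (limma, adjusted p = 4.73e-05), a fold of 3.57, and it was 1.85 in codes 44-54, 2.01 in codes 32-37 and 1.64 in codes 12-22 (SE 0.40; F test of the difference, adjusted p = 0.981). The call held in 29 of 29 alternative settings. At 1 h the change was 1.12 ± 0.27 with an adjusted p of 0.0598, and with the range as a block it was called (adjusted p = 0.0268); without 1 h replicate 6 it was 1.34 (adjusted p = 0.00234).

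Nfil3, a basic leucine zipper repressor, rose at 4 h. Before the extract its signals were highest on the 2 arrays of codes 32-37, a difference that was not tested at 0 h alone. At 0 h its signals were 217 and 258 in codes 44-54, 821 and 1364 in codes 32-37 and 238 and 320 in codes 12-22. At 1 h they were 483 and 733, 1548 and 1980, and 231 and 492 in the same order of ranges, and at 4 h 997 and 2472, 1836 and 2205, and 551 and 1587. In each range the 4 h arrays were above the 0 h arrays, while across ranges the 0 h arrays of codes 32-37 overlapped the 4 h arrays of the others. The change at 4 h against 0 h was 1.76 ± 0.54 (limma, adjusted p = 0.0174; 5.90e-04 with the range as a block), a fold of 3.38. It was 2.65 in codes 44-54, 0.92 in codes 32-37 and 1.70 in codes 12-22 (SE 0.53; F test of the difference, adjusted p = 0.631), and the call was lost without codes 44-54 (1.31, adjusted p = 0.226). At 1 h it was 0.76 ± 0.54 (adjusted p = 0.985).

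Etv3, an ETS-family repressor, rose at 4 h on 3 of its 4 probe sets. The brightest had signals of 1294 to 3543 at 0 h (median 2636), 3061 to 5730 at 1 h (median 3952) and 3190 to 11712 at 4 h (median 8415). A single array at 4 h, in codes 12-22, lay within the span of the 0 h arrays. The change at 4 h against 0 h was 1.59 ± 0.30 (limma, adjusted p = 6.46e-04), and the call held in 29 of 29 alternative settings. The other 2 bright probe sets gave 1.67 ± 0.34 (1418635_at, adjusted p = 0.00116) and 1.13 ± 0.28 (1456358_at, adjusted p = 0.00534), whereas the dim 1418636_at gave 0.15 ± 0.23 (adjusted p = 0.662). At 1 h the brightest gave 0.78 ± 0.30 (adjusted p = 0.513), and 1456358_at gave 1.06 ± 0.28 (adjusted p = 0.126), which was called with the range as a block (adjusted p = 0.0165).

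Sbno2, a helicase-family co-repressor, did not pass at either time. Its signals were 426 to 645 at 0 h (median 536), 323 to 711 at 1 h (median 520) and 350 to 1320 at 4 h (median 784). At 4 h the arrays of codes 44-54 (759 and 1320) and 32-37 (808 and 1039) were above all 0 h arrays, and those of codes 12-22 (350 and 500) were not. The change at 4 h against 0 h was 0.43 ± 0.26 (limma, adjusted p = 0.225), with a 95% interval of -0.12 to 0.98, and the other 3 probe sets gave 0.12, 0.41 and 0.39 (adjusted p 0.0977 to 0.483). The brightest was called without codes 12-22 (0.77, adjusted p = 0.0259) and without 4 h replicate 5 of that range (0.63, adjusted p = 0.0461). At 1 h the changes of the 4 probe sets lay between -0.13 and 0.23, none of them called.

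The promoter windows of the 3 nuclear genes that rose at 4 h are shown because each of them was called up at 4 h, and that of Sbno2 because it holds the letters of a STAT site. RefSeq's table (GRCm38.p6) gave 9 windows for 7 of the 10 genes, each from 250 bases before to 50 after an annotated start. Both strands were searched. The STAT motif TTCNNNGAA stood in 8.30% of all 32851 windows, the kappaB motif in 8.46% and the CRE motif TGACGTCA in 1.79%. The AP-1 motif TGANTCA stood in 7.81%, the SP1 motif GGGCGG in 35.7% and the TATA box motif TATAAA in 13.6%. Capitals below mark every match, in the direction of transcription. The window of Bcl3 is chr7:19822706-19823005 (minus strand), that of Nfil3 chr13:52980990-52981289 (minus strand), that of Etv3 chr3:87525328-87525627 (plus strand) and that of Sbno2, 1 of its 3, chr10:80101138-80101437 (minus strand).
Bcl3: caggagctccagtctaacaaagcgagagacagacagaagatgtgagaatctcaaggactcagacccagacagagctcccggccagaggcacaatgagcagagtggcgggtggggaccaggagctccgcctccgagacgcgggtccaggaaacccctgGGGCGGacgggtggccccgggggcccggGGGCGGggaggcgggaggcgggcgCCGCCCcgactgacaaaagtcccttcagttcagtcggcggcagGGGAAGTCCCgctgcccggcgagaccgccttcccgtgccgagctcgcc
Nfil3: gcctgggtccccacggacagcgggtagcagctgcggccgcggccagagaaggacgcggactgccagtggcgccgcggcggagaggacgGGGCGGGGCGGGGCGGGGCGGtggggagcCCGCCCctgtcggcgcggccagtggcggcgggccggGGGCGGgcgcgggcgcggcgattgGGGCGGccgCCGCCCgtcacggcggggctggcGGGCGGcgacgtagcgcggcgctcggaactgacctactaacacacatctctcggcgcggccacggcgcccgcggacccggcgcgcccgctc
Etv3: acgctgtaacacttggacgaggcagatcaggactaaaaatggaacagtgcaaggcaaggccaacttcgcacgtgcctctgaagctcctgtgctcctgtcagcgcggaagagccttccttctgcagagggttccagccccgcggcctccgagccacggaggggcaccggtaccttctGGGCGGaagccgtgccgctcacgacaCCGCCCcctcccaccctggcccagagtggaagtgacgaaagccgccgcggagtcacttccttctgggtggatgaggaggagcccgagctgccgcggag
Sbno2: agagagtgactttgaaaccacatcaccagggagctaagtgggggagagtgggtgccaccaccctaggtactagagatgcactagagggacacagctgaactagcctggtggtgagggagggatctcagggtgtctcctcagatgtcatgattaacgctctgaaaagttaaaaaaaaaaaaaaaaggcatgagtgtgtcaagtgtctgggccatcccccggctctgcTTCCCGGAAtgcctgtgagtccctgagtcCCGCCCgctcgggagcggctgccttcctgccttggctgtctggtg
Bcl3 holds a kappaB match, GGGAAGTCCC, whose first base is at position 3 from the start, and 3 SP1 matches. Nfil3 holds 9 SP1 matches, some of which overlap, and Etv3 holds 2. In Sbno2 the STAT match TTCCCGGAA has its first base at position -24 from the start, another Sbno2 window holds TTCGCAGAA at position -26 from its own start, and the last of the 3 holds a kappaB match. No STAT match lay in the windows of Bcl3, Nfil3, Etv3, Stat3, Jak1 or Tyk2, and the Jak1 window holds a CRE match. A match or its absence describes these letters in this window and nothing beyond it.

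**Figure D4:**
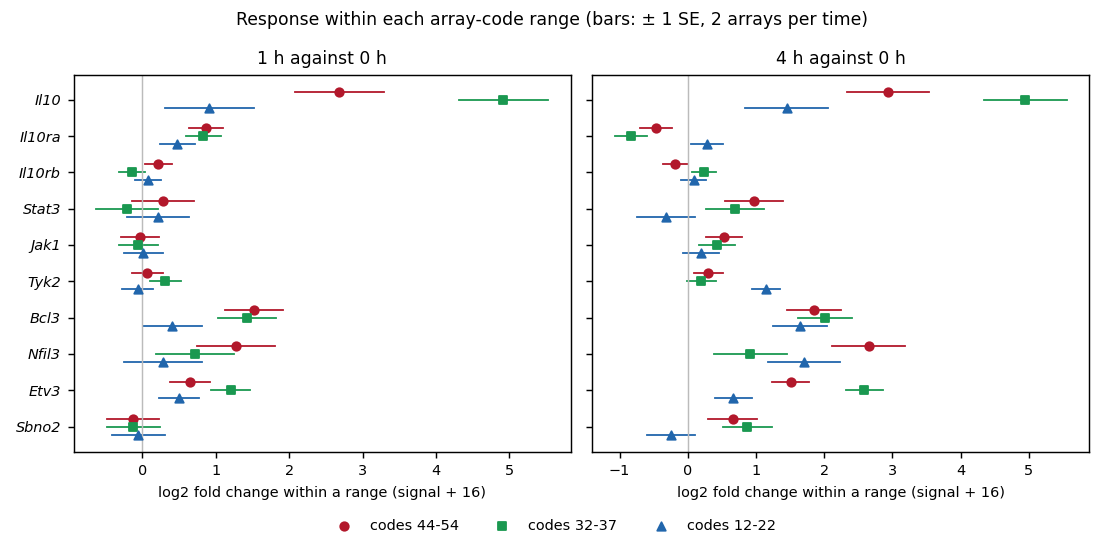
Log2 fold change (signal + 16) within each range of array codes at 1 h against 0 h and at 4 h against 0 h, with ± 1 SE from a fit of 9 means (2 arrays per time and range). Bcl3 at 4 h has its 3 ranges between 1.64 and 2.01, while Etv3 at 4 h runs from 0.67 in codes 12-22 to 2.59 in codes 32-37.

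Whether the response itself differed between the ranges was tested by limma's F test over the 9 means. At 1 h none of the 10 genes passed, beside 0% of all probe sets, and Il10 alone had an unadjusted p under 0.05. At 4 h none of the 10 passed against 0.837% of all probe sets, and Il10, Il10ra, Tyk2 and Etv3 had an unadjusted p under 0.05. The share of all probe sets at that unadjusted threshold was not counted, so these genes cannot be set against it. Etv3 came nearest (adjusted p = 0.0831): at 4 h its signals were 8397 and 11712 in codes 44-54, 8433 and 9081 in codes 32-37 and 3190 and 5499 in codes 12-22, against 3421 and 3543, 1294 and 1612, and 2539 and 2732 at 0 h. The 4 h log2 fold change was 1.51, 2.59 and 0.67 in these ranges (SE 0.27). The difference of codes 32-37 minus 12-22, 1.92 ± 0.38, passed as a single contrast (limma, adjusted p = 0.0323). On the other Etv3 probe sets this contrast did not pass. It was 1.90 for 1418635_at (adjusted p = 0.0974), 0.64 for 1456358_at (adjusted p = 0.721) and -0.30 for 1418636_at (adjusted p = 0.906). The F test of the brightest Etv3 probe set passed with log2(signal + 64), at adjusted p = 0.0462, and without 4 h replicate 6, at adjusted p = 0.0468.

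Between the ranges, over all times, 3 of the 10 genes were called in at least 1 comparison. By comparison, the calls were 1 up for codes 44-54 against 12-22, 2 up for codes 32-37 against 12-22 and 1 down for codes 44-54 against 32-37. These counts of 10 are near the shares of all probe sets called, which are given with each comparison below. Nfil3 was higher in codes 32-37 than in codes 12-22 by 1.76 ± 0.34 on the log2 scale (limma, adjusted p = 0.00209; 9.65% of all probe sets were called up and 8.12% down), and lower in codes 44-54 than in codes 32-37, with a difference of -1.32 ± 0.34 (adjusted p = 0.0120; 8.25% called down and 8.87% up). Its median signal over 6 arrays was 608 in codes 44-54, 1692 in codes 32-37 and 406 in codes 12-22. The first of these calls held in 26 of 26 alternative settings and the second in 25 of 26, the exception being the fit with no time term (adjusted p = 0.148). Stat3 was higher in codes 32-37 than in codes 12-22 by 0.95 ± 0.28 (adjusted p = 0.0257), and 1460700_at gave 0.86 ± 0.22 (adjusted p = 0.0137), while 1424272_at and 1459961_a_at gave -0.16 and 0.23 and were not called. Etv3 was higher in codes 44-54 than in codes 12-22 by 0.73 ± 0.24 (adjusted p = 0.0451; 10.5% called up and 8.66% down), a call that held in 11 of 26 alternative settings, while that of Stat3 held in 17 of 26. The call of Stat3 was lost without any 1 of 0 h replicate 2, 1 h replicate 4 and 4 h replicates 4, 5 and 6 (0.78 to 0.88, adjusted p 0.0581 to 0.0626). That of Etv3 was lost without any 1 of 0 h replicates 1, 3 and 4, 1 h replicates 1, 2, 3, 4 and 6 and 4 h replicates 3, 5 and 6 (0.52 to 0.76, adjusted p 0.0502 to 0.0952). Stromal markers summed to 13242 to 18442 in codes 44-54, 3492 to 6851 in codes 32-37 and 1077 to 1701 in codes 12-22, and their part in these differences, like that of the neutrophil markers, was not tested.

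The genes whose log2 signals over the 18 arrays followed Il10 most closely were Egr2 (Pearson r = 0.94), Socs3 (0.91), Tnfaip3 (0.89), Egr3 (0.89) and Zfp36 (0.89). Egr2 and Egr3 are early growth response transcription factors, Socs3 encodes a feedback inhibitor of cytokine receptors, Tnfaip3 a ubiquitin editing enzyme of the NF-κB pathway and Zfp36 an mRNA-destabilising protein. Like Il10, Egr2 was low at 0 h (55.5 to 447) and had its lowest 1 h value on replicate 6 (565, against a median of 6680). After the mean of each time was removed, the closest were Egr3 (0.83), Egr2 (0.83), Nr4a1 (0.80), Il17a (0.79) and Etv3 (0.78), of which Il17a was dim throughout (61.7 to 186). Of the axis, Bcl3 (0.88, and 0.70 with the time means removed) and Etv3 (0.86 and 0.78) had the highest coefficients with Il10. The lowest were those of Il10ra (0.15) and Il10rb (0.18) on the log2 values, and those of Tyk2 (-0.13) and Nfil3 (0.12) with the time means removed. The points share their times and ranges, so these coefficients over 18 arrays describe the arrays and carry no test.

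**Figure D5:**
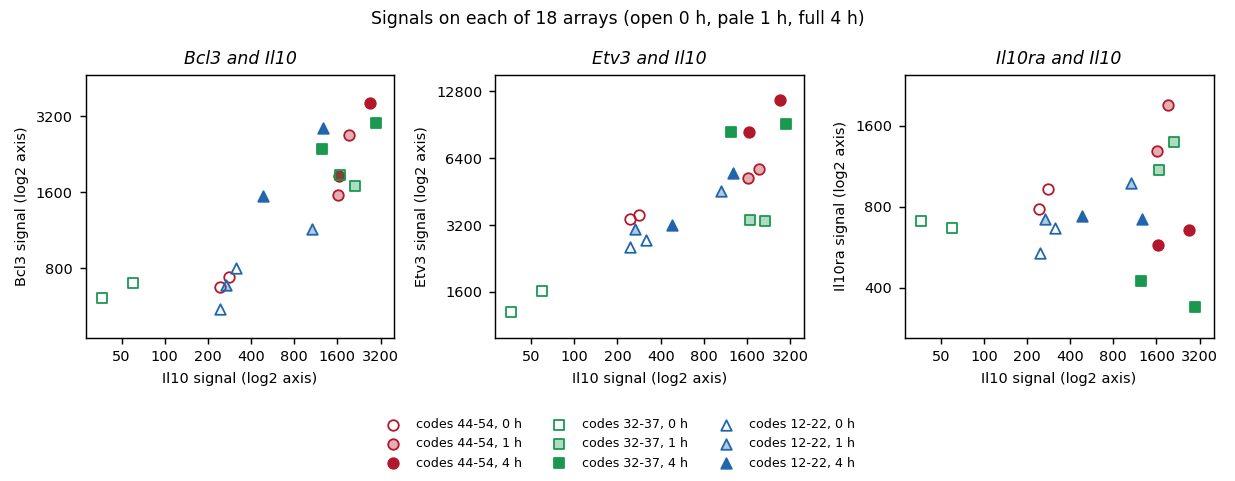
Signal of Bcl3, Etv3 and Il10ra (y axes, log2 scale) against that of Il10 (x axes, log2 scale) on each of 18 arrays; shapes are the ranges of codes, and open, pale and full symbols are 0 h, 1 h and 4 h. Bcl3 and Etv3 run upward with Il10 across the arrays, whereas Il10ra at 4 h lies between 339 and 743 with Il10 between 482 and 2980.

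Genes known to be induced by IL-10 in macrophages were 4 up and none down of 14 measured at 1 h, and 9 up and 2 down at 4 h against 0 h. Of all probe sets tested, 0.612% were up and 0.140% down at 1 h, and 9.93% up and 23.1% down at 4 h. The median change of the 14 was 0.39 at 1 h and 1.35 at 4 h, beside -0.04 and -0.22 for all probe sets tested. Socs3, a feedback inhibitor of cytokine receptors, rose by 3.82 ± 0.43 at 1 h (limma, adjusted p = 1.66e-04) and 4.86 ± 0.43 at 4 h (adjusted p = 2.98e-07). Its signals were 310 to 1009 at 0 h, 1857 to 16510 at 1 h and 12056 to 28451 at 4 h. Dusp1, a phosphatase of MAP kinases, and Zfp36 rose at 1 h by 2.35 and 1.95, and Pim1, a kinase downstream of STATs, by 1.60. At 4 h the largest rises after Socs3 were those of Il1rn, the IL-1 receptor antagonist (4.42 ± 0.49), Tnfrsf1b, a TNF receptor (2.82 ± 0.22), and Hmox1, haem oxygenase (2.31 ± 0.47). Some listed genes had lower mean signals at 4 h than at 0 h. Il21r was at 123 against 265, the dim Cd163 at 52.3 against 124 and Fcgr1 at 5033 against 7481. Over this and the pathway lists below, 11 genes were called at 1 h, against 1 without codes 32-37 and 0 without codes 44-54. Whether IL-10 itself had a part in the rises or falls of this list was not tested.

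Of the other JAK and STAT genes, limma called 0 of 7 at 1 h (0 at an unadjusted p under 0.05). At 4 h against 0 h, 2 of 7 rose, Jak2 by 2.50 ± 0.25 (adjusted p = 1.06e-06) and Stat5a by 1.66 ± 0.19 (adjusted p = 4.23e-06), and 0 fell; of all probe sets tested 9.93% rose and 23.1% fell. The counts of the lists that follow are to be read against these shares. Jak2, the kinase of growth-factor and interferon γ receptors, had signals of 958 to 1780 at 0 h, 990 to 2513 at 1 h and 4671 to 10247 at 4 h. All 4 h arrays thus lay above all 0 h arrays, as was so for 5.59% of all probe sets tested. They also lay above all 1 h arrays, for which no share was counted. Of 5 measured members of the IL-10 family and the class II cytokine receptors, Ifnar1, a type I interferon receptor chain, rose at 4 h (0.74 ± 0.16, adjusted p = 0.00150); 6 further members were too dim to test. Other receptors that signal through STAT3 moved both ways: Lifr (-2.44 ± 0.47) and Il6ra (-1.90 ± 0.27) fell and Csf3r (1.40 ± 0.25) rose at 4 h, with 5 of 7 measured. Csf3r is also 1 of the neutrophil markers. Their sum, which includes Csf3r itself, was 1605 to 5878 at 4 h, against 954 to 3578 at 0 h. That sum is therefore no separate measure of neutrophils here, and their part in the rise of Csf3r was not tested. Il6ra, the ligand-binding chain for IL-6, had signals of 88.8 to 240 at 4 h, against 492 to 836 at 0 h.

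Of the 10 inhibitors of JAK-STAT signalling, 1 rose at 1 h and 5 rose and 2 fell at 4 h against 0 h. Of all probe sets tested, 0.612% rose at 1 h, and 9.93% rose and 23.1% fell at 4 h, so that 2 falls of 10 are near the share among all. Besides Socs3 these included Socs1 (1.95 ± 0.48, limma, adjusted p = 0.00449) and Cish (1.77 ± 0.42, adjusted p = 0.00385), feedback inhibitors of cytokine receptors, while Pias3, an inhibitor of STAT3, fell by 1.00 on the log2 scale (SE 0.14, adjusted p = 4.73e-05). Socs1 was dim, with a mean of 241 at 4 h and 37.9 at 0 h, so that its fold change depends on the added 16. Its signals at 0 h (6.62 to 54.7) and 1 h (9.32 to 63.8) lay below the median of each array. Socs1 thus passed the filter only through its 4 h arrays, and its call and its place among the 5 rises are partly set by the filter. Factors known to regulate Il10 transcription were 2 up of 13 at 1 h, Prdm1 (2.14 ± 0.46, a call that held in 16 of 29 alternative settings) and Junb (2.01 ± 0.27), and 6 up and 3 down at 4 h. The 3 falls of 13 are the same share as the 23.1% among all probe sets tested. At 4 h the largest rises were those of Rel (2.19 ± 0.33), an NF-κB subunit, Junb (2.11 ± 0.27), Map3k8, the kinase upstream of ERK in Toll-like receptor signalling (1.98 ± 0.37), and Cebpb (1.89 ± 0.26). Fos fell by 2.28 between 4 h and 1 h (SE 0.30, adjusted p = 2.98e-05), with a mean of 4736 at 4 h and 21512 at 1 h.

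Cytokine and effector genes that IL-10 is known to restrain rose alongside Il10. At 1 h 5 of 11 measured were up, and at 4 h 11 of 11, where 0.612% and 9.93% of all probe sets tested were up. The 1 h call of Il1b (limma, adjusted p = 0.0448) held in 8 of 29 alternative settings, against 28 for Tnf and 27 each for Cxcl1 and Ccl3. The 11 genes had a median change of 5.57 at 4 h against -0.22 for all probe sets tested. Of the 14 listed, 3 were too dim to test. A gene dim before 4 h could pass the filter mainly through its 4 h arrays. Csf2, for example, was at 5.79 to 44.4 at 0 h, 6.06 to 88.9 at 1 h and 22.8 to 2725 at 4 h. The count of 11 at 4 h and its median are thus partly set by the filter. Tnf had signals of 34.3 to 263 at 0 h, 1557 to 19647 at 1 h and 10133 to 41244 at 4 h, a rise of 6.85 ± 0.57 at 4 h against 0 h (limma, adjusted p = 1.48e-07). The chemokine genes Cxcl1 (6.78 ± 0.59) and Ccl3 (6.26 ± 0.62) and the cytokine gene Il6 (6.08 ± 0.86) also rose. Il6 at 0 h, at 2.40 to 48.3, was below the median of each array, so that the size of its change depends on the added 16 and ran from 4.80 to 7.25 over the alternative settings. Il12b, a subunit of IL-12 and IL-23, averaged 3287 ± 4988 at 4 h, against 74.4 ± 40.2 at 1 h (SD, n = 6 arrays each), and its 4 h signals ran from 189 to 12195.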

How the data were processed

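The deposited intensity values, 1 signal per probe set and array for 18 arrays, were made by the authors with MAS5 and GCOS, per the submitters' processing notes; the versions, the settings and any genome build: not given in the sources used here. All columns were used. The mean signal between the 2nd and 98th percentile was 496 to 498 on each array, and the array medians were 74.5 to 108. Leaving out 64 control probe sets left 45037, of which 34945 carried 1 gene symbol in the platform annotation, 34741 of them matched to current RefSeq names. Of these 45037, the 25804 above their own array's median on at least 4 of 18 arrays were kept.

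Groups came from the times in the labels, and replicates were numbered in accession order. Values were turned to log2(signal + 16) and fitted with limma 3.58.1 in R 4.3.3: a mean per time over 18 arrays, time plus code range for the ranges, and a mean per time and range with a moderated F test for range-dependent responses. P-values were adjusted by Benjamini-Hochberg over all kept probe sets. The scripts were tested on simulated data. Each gene's brightest kept probe set, by its mean log2 signal, stands for it.

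All 10 genes are named by every probe set. Of each pathway list, up to 4 called genes per comparison are named, those that changed most. Il21r, Cd163 and Fcgr1 are named besides, for their lower means at 4 h. Of the genes most like Il10, the 5 with the highest correlation by each measure are named. The members and lists were chosen with earlier results of these data known. Promoter windows are from RefSeq (GRCm38.p6). Alternatives changed the filter, the added constant, the normalization, the summary of probe sets, the arrays and ranges in the fit and the block; for the pathway lists they were chosen after seeing the data.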

Additional observations from a re-analysis of the deposited data

Results flagged for a closer look

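In 30 groups of 6 arrays, 1 per gene and time, 2 had an array far from the other 5; chance marks about 1 group in 20. Il10 at 1 h was 267 on replicate 6 (code 14, range 12-22), against 1063 to 2127 on the other 1 h arrays. Among the 10 genes, that array also held the lowest 1 h signals of Il10ra (721), Bcl3 (684), Nfil3 (231) and Etv3 (3061), and it held that of Egr2 (565). Stat3 at 1 h was 5668 on replicate 4 (code 33, range 32-37), against 2279 to 3116 on the others.

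The 4 h response of Etv3 differed between ranges by a direct test of 1 pair: codes 32-37 minus 12-22 gave a log2 difference of 1.92 (SE 0.38, limma, adjusted p = 0.0323), while the F test over all 3 ranges did not pass (adjusted p = 0.0831). Both 4 h arrays were above both 0 h arrays in each of these 2 ranges. These values are of the brightest Etv3 probe set. On the other Etv3 probe sets the same contrast did not pass (limma, adjusted p 0.0974 to 0.906). No other pair of ranges passed for any of the genes, at 1 h or 4 h.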

How the results depend on the processing

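No result of the 177 gene comparisons reversed over 5043 alternative values; in 91 of them the sign changed for a gene called in neither setting. Bcl3, Etv3 and Il10 at 4 h against 0 h were called in 29 of 29 alternatives, Nfil3 in 28 and Tyk2 in 16. Il10 at 1 h was not called with the 2 times alone (2.84, adjusted p = 0.0569), without codes 32-37 (1.80, adjusted p = 0.655) or without codes 44-54 (2.92, adjusted p = 0.475). The count of the 10 genes called at 1 h, 1 as reported, was 2 with the range block, log2(signal + 64), quantile normalization or without codes 12-22, and 0 with the 2 times alone, without codes 32-37 or without codes 44-54. At 4 h the count of 5 was 3 without codes 44-54. Between 4 h and 1 h the count of 1 was 6 with arrays centred on their medians, 5 with the block, 2 with log2(signal + 64) or without codes 32-37, and 3 without codes 12-22. For codes 32-37 against 12-22 the count of 2 was 1 with the mean over probe sets, no filter, no time term or the 2 ranges alone. For codes 44-54 against 12-22 the count of 1 was 0 with median centring, log2(signal + 1), no filter or no time term. For codes 44-54 against 32-37 it was 2 with log2(signal + 64), the mean over probe sets, the 2 ranges alone or quantile normalization, and 0 with no time term. The 4 h response differed between ranges for 1 gene, Etv3, with log2(signal + 64), and for 0 as reported. Genes of the pathway lists called numbered 11 at 1 h, 43 at 4 h against 0 h and 33 at 4 h against 1 h; without codes 32-37 and without codes 44-54 those at 1 h were 1 and 0, and those between 4 h and 1 h were 19 without codes 12-22 and 18 without codes 44-54. A fit without a range has 12 arrays, and the causes of the other changes were not tested.

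Leaving out each array in turn, the log2 fold change of Il10 was 2.49 to 3.26 at 1 h, 2.77 to 3.43 at 4 h and -0.15 to 0.59 between 4 h and 1 h. The counts were 0 to 2 at 1 h (0 without 0 h replicate 3 or 1 h replicates 1, 2, 3 or 4, and 2 without 1 h replicate 6), 4 to 6 at 4 h and 1 to 4 between 4 h and 1 h (above 1 without 0 h replicate 2, 1 h replicate 2 or 4 h replicates 1, 2, 4 or 5). Between ranges they were 0 to 1 for codes 44-54 against 12-22, 1 to 2 for 32-37 against 12-22 and 1 to 3 for 44-54 against 32-37, with 0 to 0 genes at 1 h and 0 to 1 at 4 h for range-dependent responses. The pathway list genes called were 9 to 16, 39 to 44 and 27 to 33 in the 3 time comparisons. No paired analysis was possible because the labels carry no replicate numbers; the range of codes served as the block.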
